A study of Mus musculus with 360 samples.

Results

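In the mouse cochlea 51 single cells that carried a transgene of 3 hair cell transcription factors, and that the authors' annotation places in its cluster 2 under the name Reprogrammed Hair Cells, were compared with 29 control cells of its cluster 3, named WT Cells 2. The 80 cells were chosen by genotype and by the authors' cluster number, out of 360 cells of which 341 carry a cluster. The GAP genotype, Fbxo2CreERT2::Rosa26-tdTomato::Rosa26-GAP, holds a Cre recombinase that tamoxifen activates, driven from the Fbxo2 locus, a red reporter, and an allele for Gfi1, Atoh1 and Pou4f3. The control genotype, Fbxo2CreERT2::Rosa26-tdTomato, holds the same Cre and reporter without that allele. Both genotypes received tamoxifen at 3 weeks of age and their cochleae were dissociated with papain at 5 weeks. Single cells were sorted by tdTomato and EpCAM fluorescence into 96-well plates and made into SMART-MATQ libraries, which count transcripts by unique molecular identifiers (UMIs). Recombination reaches only cells in which the Fbxo2 locus is active, so the sort holds a mixture of non-sensory cell types, and WT Cells 2 is 1 of 4 control clusters with 20 or more cells.

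Hair cells are the mechanoreceptors of the cochlea. A bundle of actin-filled stereocilia opens transduction channels through tip links, and a calcium-triggered ribbon synapse passes the signal to the nerve. Around them lie supporting cells and, to both sides, the cells of the inner and outer sulcus, which keep potassium moving and secrete the tectorial membrane. ATOH1 starts the hair cell programme in development, POU4F3 and GFI1 act after it, and mature mammalian supporting cells do not switch these genes on by themselves.

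The cluster 2 GAP cells held 1444539 UMIs in all, with 20 cells from titles with the letter C and 31 from the letter D. The WT Cells 2 control cells held 809230 UMIs, 18 cells from letter A and 11 from letter B. The median cell held 28205 UMIs in C and 28271 in D, against 21023 in A and 30690 in B, and the median number of genes with a UMI was 4825 in GAP cells and 4194 in control cells. Each letter holds 1 genotype, so letter and genotype cannot be told apart. The labels name no animals, and each genotype therefore counts as 1 sample with no replicate check, no p-value and no standard error. Levels are UMIs summed over a set of cells and scaled to a common total (CPM, the usual scale for such sums), and the bracketed 95% intervals are exact and cover counting error only. The clusters were made from the same genes, so differences between these sets are described and not tested. With sums over cells, fewer cells that express a gene and less RNA per cell cannot be told apart, and the share of cells with a UMI is given where it bears on a value.

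The cluster name was checked against markers. Of 13 hair cell markers, 10 reached 10 CPM in the cluster 2 GAP cells and 3 did so in the WT Cells 2 control cells. The prestin gene Slc26a5 and the oncomodulin gene Ocm, which mark outer hair cells, had 0 UMIs in both sets, which allows levels of up to 2.08 CPM in the GAP cells and 3.71 CPM in the control cells. Summed over the 13 markers, the median GAP cell held 2005 CPM (414 to 17315) and the median control cell 238 CPM (0 to 684). The 10 supporting cell markers summed to 11209 CPM in the GAP cells and 7696 CPM in the control cells, and S100a1 alone made up 7793 and 3848 CPM of these sums. The other 9 summed to 3416 CPM in the GAP cells and 3848 CPM in the control cells, and 5 of them were lower and 3 higher in the GAP cells. The GAP cells thus held hair cell markers together with supporting cell markers. Sox2 had 0 UMIs in both sets. Most of the hair cell markers also reached 10 CPM in the GAP cells of cluster 1, which the authors call reprogrammed supporting cells. Myo6 was at 1481 CPM there against 1200 CPM in cluster 2, and Calb2 at 23.7 against 2.77 CPM. The other hair cell markers with UMIs were higher in cluster 2. The comparison with control cells thus does not by itself set cluster 2 apart from cluster 1.

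Most genes differed by less than 2-fold between the 2 sets. Of 10262 genes with at least 10 CPM in either set, 2212 (21.6%) were at least 2-fold higher in the GAP cells and 1285 (12.5%) at least 2-fold lower. The median log2 ratio over these genes was 0.14. Genes were called gained if they had at least 10 CPM and a UMI in at least 25% of the GAP cells, an 8-fold higher level and a higher level in each of the 4 pairings of a GAP with a control letter. That held for 238 genes (2.32%). The reverse held for 90 lost genes (0.877%). Without letter A the gained genes numbered 415 and without letter D 432, and without letter D the lost genes came to 163.3% of their number. With a letter left out the rule asks for 2 pairings in place of 4. Of 3558 genes with at least 50 CPM in both sets, 1086 (30.5%) were called shared, with a ratio from 0.8 up to the inverse of 0.8, no pairing of letters beyond 2-fold and a UMI in at least 50% of the cells of each set. These counts are sizes and not the outcome of a test. The shares of 21.6% and 12.5% are the background for the 2-fold counts of every gene list below.

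**Figure D1:**
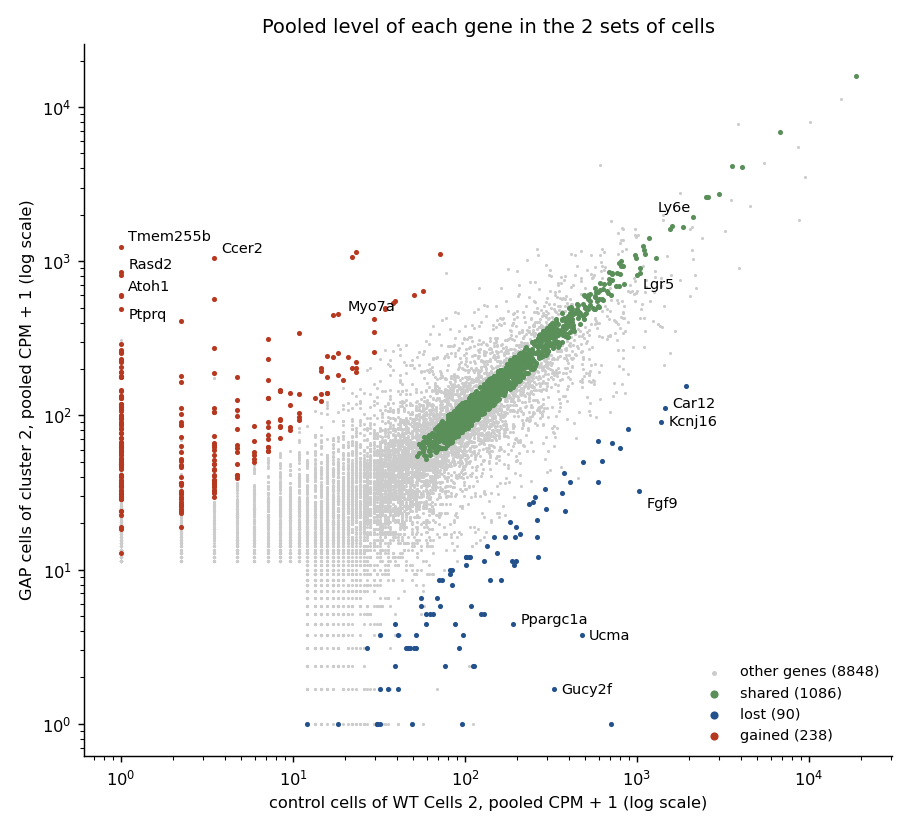
Pooled level of each gene with at least 10 CPM in either set, as CPM + 1 on log axes, with the cluster 2 GAP cells on the vertical axis and the WT Cells 2 control cells on the horizontal axis. The 238 gained genes lie above the diagonal, many of them at 0 CPM in control cells, and the 90 lost genes lie below it.

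The 3 genes of the allele were checked first. Atoh1 (chr6:64729125-64731245, plus strand, GRCm38) was at 827 and 807 CPM in letters C and D, against 0 UMIs in both A and B. It had a UMI in all 51 GAP cells, from 31.6 to 2493 CPM per cell with a median of 728, and the level was at least 219.8-fold higher than the limit of 3 counts over the control set. Pou4f3 was at 648 and 571 CPM in C and D, against 0 in A and B, again in all 51 GAP cells. Gfi1 was at 229 and 165.1 CPM in C and D, against 0 in A and B, with a UMI in 45 GAP cells. All 3 genes thus went with the labels in these 80 cells. Counts do not separate transgene from endogenous transcripts. Fbxo2, whose locus drives the Cre, was at 372 and 676 CPM in letters C and D, against 766 and 757 CPM in letters A and B. Epcam, whose protein was used in the sort, was at 189 CPM in GAP cells and 179.2 CPM in control cells, 1.05 times as high (0.859 to 1.30).

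Outside the allele, the highest log2 ratio of (CPM + 1) among the named genes belonged to Tmem255b, a transmembrane protein gene (chr8:13435189-13468473, plus strand). It was at 1379 and 1154 CPM in C and D, against 0 in A and B, and every GAP cell had a UMI. Rasd2, a small GTPase of the Ras family, was at 935 and 790 CPM in C and D, against 0 in A and B, and 50 of 51 GAP cells had a UMI. In both genes the GAP cells stood apart from the control cells except for a single Rasd2 cell at 0. The exons of Tmem255b overlap those of Gas6 on the other strand, which was at 26.3 CPM in GAP cells and 11.1 CPM in control cells, and whether strand was used in counting is not given in the sources used here.

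Ccer2, which codes for a coiled-coil, glutamate-rich protein (chr7:28756174-28758968, plus strand), was at 1237 and 924 CPM in letters C and D, against 4.42 CPM in A and 0 in B. All 51 GAP cells had a UMI, from 78.3 to 6364 CPM, against 2 of 29 control cells, the higher at 85.1 CPM. The sets touched only at their edges. The ratio was 424 (117.2 to 3505). Its exons overlap those of Nfkbib on the other strand, which was at 29.1 CPM in GAP cells and 12.4 CPM in control cells. Myo15, the motor that carries actin regulators to stereocilia tips (chr11:60469339-60528369, plus strand), was at 297 and 228 CPM in C and D, against 0 in A and B. It was spread less evenly, with a UMI in 27 of 51 GAP cells.

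Upstream sequences are shown for these 2 gained genes and for Ucma, a lost gene described further on, as examples chosen after their values were seen. The window of Fgf9, another lost gene, held none of the motifs and is not shown because it lies within the gene's listed span. Those shown are the 250 bases before each gene's start in RefSeq (GRCm38.p6), all on the plus strand: chr7:28755924-28756173 for Ccer2, chr11:60469089-60469338 for Myo15 and chr2:4975872-4976121 for Ucma. Capitals mark matches on either strand to CAGCTG and CAGATG, E-box letters that bHLH factors such as ATOH1 can bind, to AATCAC, the core letters of GFI1 binding, and to TAATTA, a homeodomain core. The matches shown do not overlap one another, and CAGCTG is its own reverse complement.
Ccer2: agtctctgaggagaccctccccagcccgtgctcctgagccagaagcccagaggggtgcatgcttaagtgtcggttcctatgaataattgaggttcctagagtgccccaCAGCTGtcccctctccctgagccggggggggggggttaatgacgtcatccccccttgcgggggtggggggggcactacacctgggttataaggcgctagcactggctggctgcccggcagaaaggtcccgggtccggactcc
Myo15: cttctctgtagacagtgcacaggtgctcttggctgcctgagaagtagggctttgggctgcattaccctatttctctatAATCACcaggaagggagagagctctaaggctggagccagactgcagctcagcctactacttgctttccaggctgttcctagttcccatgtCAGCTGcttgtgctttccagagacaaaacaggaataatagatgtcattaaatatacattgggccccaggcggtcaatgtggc
Ucma: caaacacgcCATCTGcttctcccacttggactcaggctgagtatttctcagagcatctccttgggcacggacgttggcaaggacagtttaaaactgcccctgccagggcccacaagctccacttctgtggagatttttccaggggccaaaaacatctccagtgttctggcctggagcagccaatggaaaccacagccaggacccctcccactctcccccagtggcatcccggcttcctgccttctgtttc
Ccer2 holds CAGCTG. Myo15 holds CAGCTG and AATCAC, and Ucma holds CATCTG, the reverse complement of CAGATG. Promoters were matched by symbol for 62 of 90 lost and 7812 of 10262 measured genes, and for most of the 238 gained genes. CAGCTG was present in 16.3% of gained and 24.2% of lost promoters, against 11.2% of those of all measured genes and 12.8% of all promoters in the table. CAGATG was present in 14.04% of gained and 14.5% of lost promoters, against 9.10% of those of all measured genes and 14.5% of all promoters. AATCAC was present in 7.30% of gained, 11.3% of lost and 7.22% of all measured genes, and in 9.22% of all promoters. TAATTA was present in 2.81%, 6.45% and 2.23% of those sets, and in 4.90% of all promoters. A match is a description of letters and not a binding site.

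The other gained genes with the highest ratios included further parts of the hair cell apparatus. Ptprq, a phosphatase of the stereocilia shaft connectors, was at 886 and 409 CPM in C and D, against 0 in A and B. Otof, the otoferlin that triggers synaptic vesicle release, was at 502 and 111.2 CPM in C and D, against 0 in A and B. Both were higher in C than in D, and they had a UMI in 36 and 22 of the 51 GAP cells. The long non-coding transcript Miat was at 612 and 404 CPM in C and D, against 0 in A and B. Runx1t1, a transcriptional corepressor, was at 412 and 209 CPM in C and D, and Ephb1, an ephrin receptor, at 210 and 233 CPM, both against 0 in A and B. Of the 238 gained genes, 94 had 0 UMIs in all control cells of the set. After each cell was thinned to 8000 UMIs, a gained gene was seen in a median of 27.5% of the GAP cells, and 41 of the 238 in at least 50%.

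Genes of hair cell fate other than the allele were partly gained and partly shared. Of 29 listed, 25 had a UMI, 18 reached 10 CPM in a set, 11 lay at least 2-fold higher in GAP cells (background 21.6%) and 1 at least 2-fold lower (background 12.5%). Members with low levels in both sets drop out of such counts, and those that remain do so mostly through the set in which they are high. Their median log2 ratio was 2.43, or 1.83 with members at 0 counts set at their bound. Mfng, a sugar transferase that modifies Notch, was at 208 and 153.6 CPM in C and D, against 0 in A and B. Nhlh1, a bHLH factor, was at 71.7 and 32.1 CPM in C and D, against 0 in A and B. The prosensory factors Gata3 and Isl1 were among the shared genes. Gata3 was at 502 and 1221 CPM in letters C and D, against 817 and 847 CPM in letters A and B. Isl1 was at 141.9 CPM in GAP cells and 145.8 CPM in control cells. Lhx3 and Barhl1, factors of hair cell maturation, were at 13.2 CPM each in the GAP cells, in 7 and 3 cells, against 0 in control cells.

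The motors of the bundle were higher. All 8 listed myosins and partners were measured and 7 were at least 2-fold higher, with a median log2 ratio of 3.57 (2.90 at the bound). Myo7a, the tip-link tensioning myosin mutated in Usher syndrome, was at 419 and 474 CPM in letters C and D, against 2.21 and 36.5 CPM in letters A and B, 26.1-fold higher (15.5 to 48.1). It had a UMI in 40 of 51 GAP cells and 3 of 29 control cells. Myo6, which anchors stereocilia at their base, was at 1318 and 1122 CPM in letters C and D, against 232 and 297 CPM in letters A and B, 4.60-fold higher (3.99 to 5.33). Control cells thus held Myo6 already, in 27 of 29 cells. Myo3a, a motor of stereocilia tips, was at 68.2 and 14.9 CPM in C and D, in 7 cells, against 0 in A and B.

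The transduction complex was higher as well. Of 12 listed genes, 10 had a UMI, 9 were measured and all 9 were at least 2-fold higher, with a median log2 ratio of 4.84 (4.56 at the bound). The list summed to 1788 and 1065 CPM in letters C and D, against 150.2 and 191 CPM in letters A and B. Tmc1, a pore subunit of the channel, was at 89.3 CPM in GAP cells and 1.24 CPM in control cells, in 23 and 1 cells, and Cdh23, the upper part of the tip link, was at 299 and 98.6 CPM in C and D, against 2.21 and 0 in A and B. Cib2, a calcium-binding partner of the channel, was in 49 of 51 GAP cells at 448 CPM, against 16.1 CPM in control cells. Lhfpl5, which joins tip link and channel, was at 92.8 CPM in the GAP cells but in only 8 of them. Tmc2, the channel subunit of immature hair cells, had 0 UMIs in both sets. The measured members thus differed in how many GAP cells held them, from 8 cells for Lhfpl5 to 49 for Cib2.

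Of 12 Usher and ankle link genes 9 were measured and 7 were at least 2-fold higher, with a median log2 ratio of 5.13 (3.19 at the bound). Clrn1, the clarin of Usher syndrome, had a UMI in 14 GAP cells and in 0 control cells, and Loxhd1, needed for lasting transduction, was at 69.9 CPM in GAP and 0 in control cells. Of 25 bundle actin genes, 21 were measured, 12 were at least 2-fold higher and 1 at least 2-fold lower, and the median log2 ratio was 1.59. Triobp, which bundles the actin of the rootlet, was at 977 and 833 CPM in letters C and D, against 178.9 and 173.9 CPM in letters A and B. Espn, the espin that crosslinks stereocilia, was at 140 and 259 CPM in letters C and D, against 17.7 and 78.5 CPM in letters A and B. Rdx, which codes for the actin linker radixin, was at 126.7 CPM in the GAP cells and 187 CPM in the control cells.

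Synaptic genes followed. Of 22 ribbon synapse and exocytosis genes, 20 had a UMI, 16 were measured and 13 were at least 2-fold higher, with a median log2 ratio of 3.55 (2.86 at the bound). The list summed to 3395 and 2458 CPM in letters C and D, against 406 and 356 CPM in letters A and B. It summed to 2829 CPM over the cluster 2 GAP cells and to 5934 CPM over the GAP cells of cluster 1. Ccer2, described above only as a coiled-coil protein gene, is in the list and made up 1237 and 924 CPM of the sums in C and D. It also made up most of the sum over cluster 1, and the other members summed to less there than in cluster 2. A synaptic role of Ccer2 was not tested here. Cabp2, a calcium sensor of the synaptic channel, was at 246 and 128.4 CPM in C and D, against 0 in A and B. Pclo, a scaffold of the active zone, was at 533 and 759 CPM in letters C and D, against 181 and 134.6 CPM in letters A and B. Cacna1d, the pore of that calcium channel, was at 101.1 CPM in the GAP cells and 100.1 CPM in the control cells. Slc17a8, which loads glutamate into inner hair cell vesicles, was at 29.8 CPM in the GAP cells, in 10 of 51, against 0 in control cells.

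Among calcium proteins, Pcp4, a calmodulin regulator, was at 907 and 351 CPM in C and D, against 4.42 and 0 in A and B, and the parvalbumin gene Pvalb at 248 and 76.8 CPM, against 0 and 0. Pvalb had a UMI in 16 of the 51 GAP cells. Atp2b2, the calcium pump of mature stereocilia, was at 114.2 CPM in GAP cells and 276 CPM in control cells. In all, 4 of 8 measured calcium genes were at least 2-fold higher and 1 was lower, with 2 of the 11 listed at 0 UMIs in both sets. Of 14 hair cell channels and receptors, 5 were measured and 4 were at least 2-fold higher. Kcna10, a potassium channel, was at 160.8 and 88.3 CPM in C and D, against 0 in A and B.

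**Figure D2:**
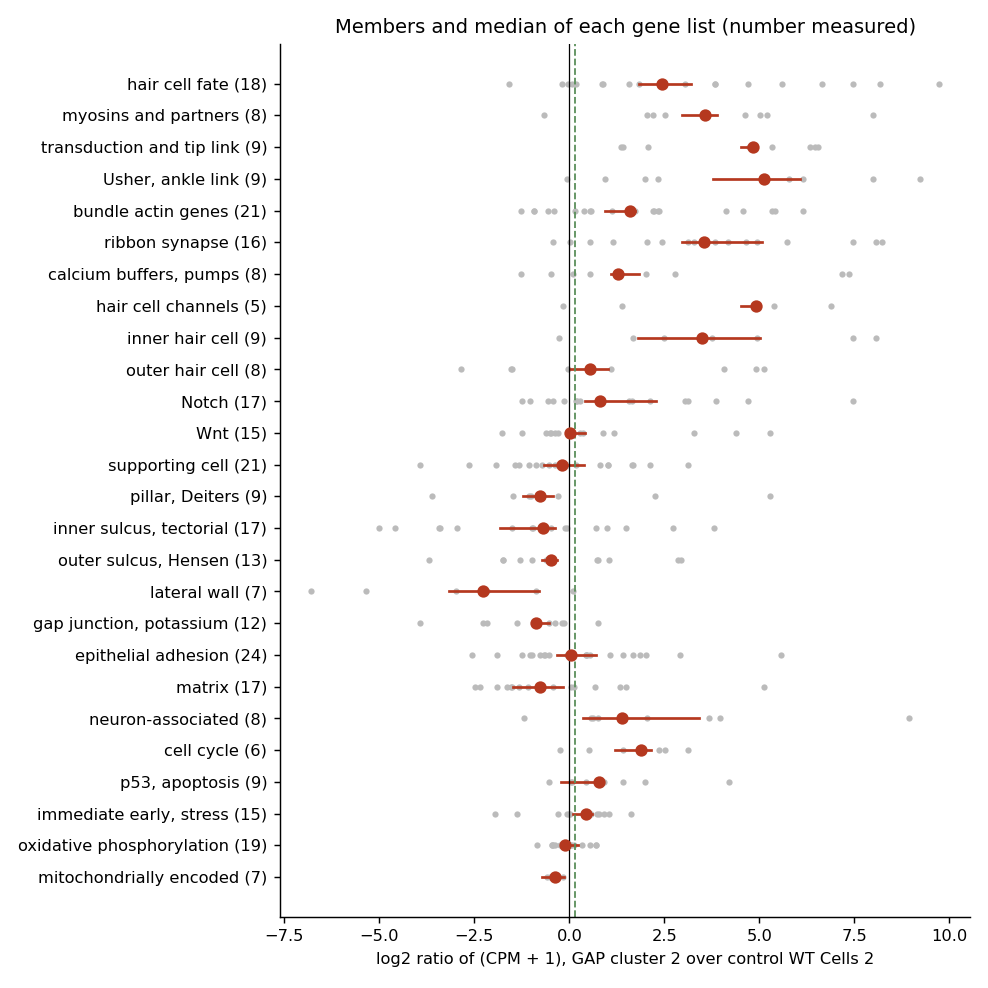
Log2 ratio of (CPM + 1), cluster 2 GAP cells over WT Cells 2 control cells, for the measured members of 26 gene lists (grey points), their median (large red point) and the range of that median over the 4 pairings of letters (red line). The number of measured members is in brackets, the dashed line is the median of all 10262 genes, and the medians of the hair cell lists lie to the right of it.

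Genes that separate inner from outer hair cells were set side by side, a list that shares Otof, Cabp2 and Slc17a8 with the synapse genes. Of 13 inner hair cell genes, 9 were measured and 8 were at least 2-fold higher in the GAP cells, their median log2 ratio being 3.50 (3.01 at the bound), and the 13 summed to 2714 and 1627 CPM in letters C and D, against 413 and 471 CPM in letters A and B. Rprm, a cell cycle inhibitor found in inner hair cells, was at 793 and 539 CPM in letters C and D, against 41.97 and 72.9 CPM in letters A and B. Tbx2, the factor that directs inner hair cell fate, was a shared gene, at 188 CPM in GAP cells and 226 CPM in control cells. Of 14 outer hair cell genes, 8 were measured, 4 were at least 2-fold higher and 3 at least 2-fold lower, and the median was 0.53, and the 14 summed to 365 and 494 CPM in letters C and D, against 464 and 250 CPM in letters A and B. Ikzf2, a regulator of outer hair cell identity, was at 15.2 CPM in the GAP cells and 45.7 CPM in the control cells. Bcl11b, a zinc finger factor of outer hair cells, was at 33.9 CPM in the GAP cells, in 6 of 51, against 0 in control cells.

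Of the genes on the hair cell lists, a GAP cell thinned to 8000 UMIs showed a median of 32 (22 to 66) and a control cell a median of 17 (13 to 27). The ranges overlapped between 22 and 27 genes. The median was 37 in C and 30 in D, against 16.5 in A and 18 in B. The 5 fullest cells, at 56 to 66 genes, were 4 of letter C and 1 of letter D. The GAP cells of cluster 1, which the authors call reprogrammed supporting cells and which come from the same letters, showed a median of 34 (24 to 46), so the 2 GAP clusters had similar medians and cluster 2 had the longer upper tail.

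**Figure D3:**
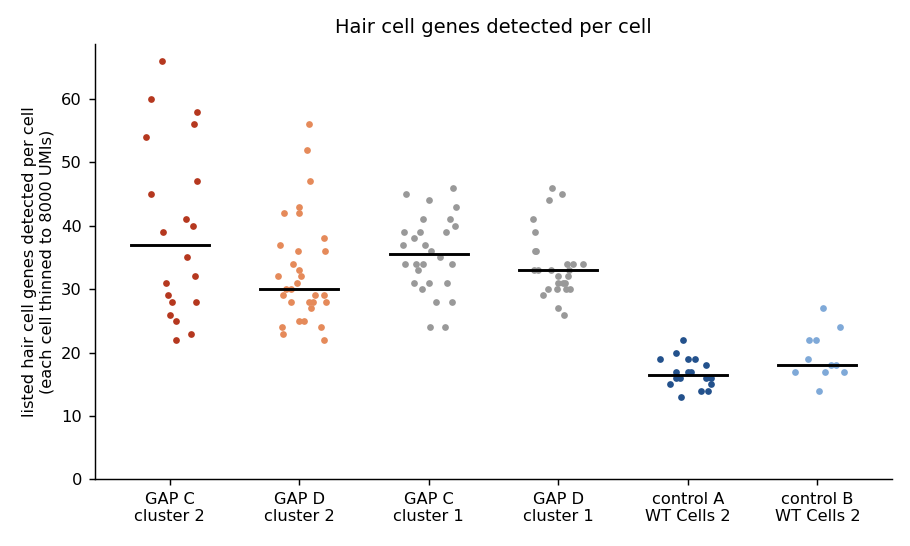
Number of the listed hair cell genes detected in each cell after thinning to 8000 UMIs, by cluster and letter, with the median as a bar. Control cells sit between 13 and 27 and cluster 2 GAP cells between 22 and 66.

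The lost genes included secreted factors, enzymes and transport proteins of the control cells. Gucy2f, a guanylate cyclase known from photoreceptors (chrX:142081160-142196931, minus strand), was at 0 and 1.15 CPM in letters C and D, against 347 and 300.1 CPM in letters A and B. Its single UMI in 1 GAP cell stood against a UMI in 28 of 29 control cells, a level 471-fold lower (83.9 to 1.868e+04). Fgf9, a secreted growth factor (chr14:58070547-58112720, plus strand), was at 12.2 and 43.6 CPM in letters C and D, against 1175 and 847 CPM in letters A and B, 33.1-fold lower (24.5 to 45.7), with a median cell of 0 in GAP and 695 CPM in control cells. Both genes were low in GAP cells of either letter. Ucma, a secreted vitamin K-dependent protein, was at 0 and 4.59 CPM in letters C and D, against 724 and 157.1 CPM in letters A and B, while 16 of 29 control cells had a UMI. Ppargc1a, the coactivator that promotes mitochondrial biogenesis, was at 0 and 5.73 CPM in letters C and D, against 172.3 and 213 CPM in letters A and B. Rspo2, a secreted enhancer of Wnt signalling, was at 3.50 and 0 CPM in letters C and D, against 110.4 and 30.9 CPM in letters A and B.

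Further lost genes by the size of the ratio were Arhgef37, Fam13a, Tmem144, Tmem40, Lox, Marcks and Oplah, at 29.7 to 127.3 CPM in the control cells and at 0 to 4.15 CPM in the GAP cells. Arhgef37, Tmem144 and Tmem40 had 0 UMIs in the GAP cells, and their levels were at least 23.2-, 14.3- and 14.3-fold lower than in control cells. Lox codes for lysyl oxidase, which crosslinks collagen, and Marcks for a substrate of protein kinase C at the membrane. Several lost genes were abundant in the control cells. Fxyd6, a regulator of the sodium pump, was at 152.99 CPM in GAP cells and 1936 CPM in control cells, Car12, a membrane carbonic anhydrase, at 110.8 and 1462 CPM in those sets, and Iqgap2, a scaffold of the cytoskeleton, at 80.99 and 886 CPM. These 3 were in all 29 control cells and in 32, 23 and 34 GAP cells. They are named for their level after their values were seen. Among the 90 lost genes, 8 had 0 UMIs in the GAP cells, and 27 were at least 2-fold higher in WT Cells 2 than in each of the other control clusters 0, 4 and 6. In the GAP cells of cluster 2, 64 of the 90 were at least 2-fold lower than in every one of those other control clusters too. The 90 genes were chosen as low in cluster 2 and high in WT Cells 2, so the counts of 27 and 64 follow in part from that choice. No share over all measured genes was taken beside them.

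**Figure D4:**
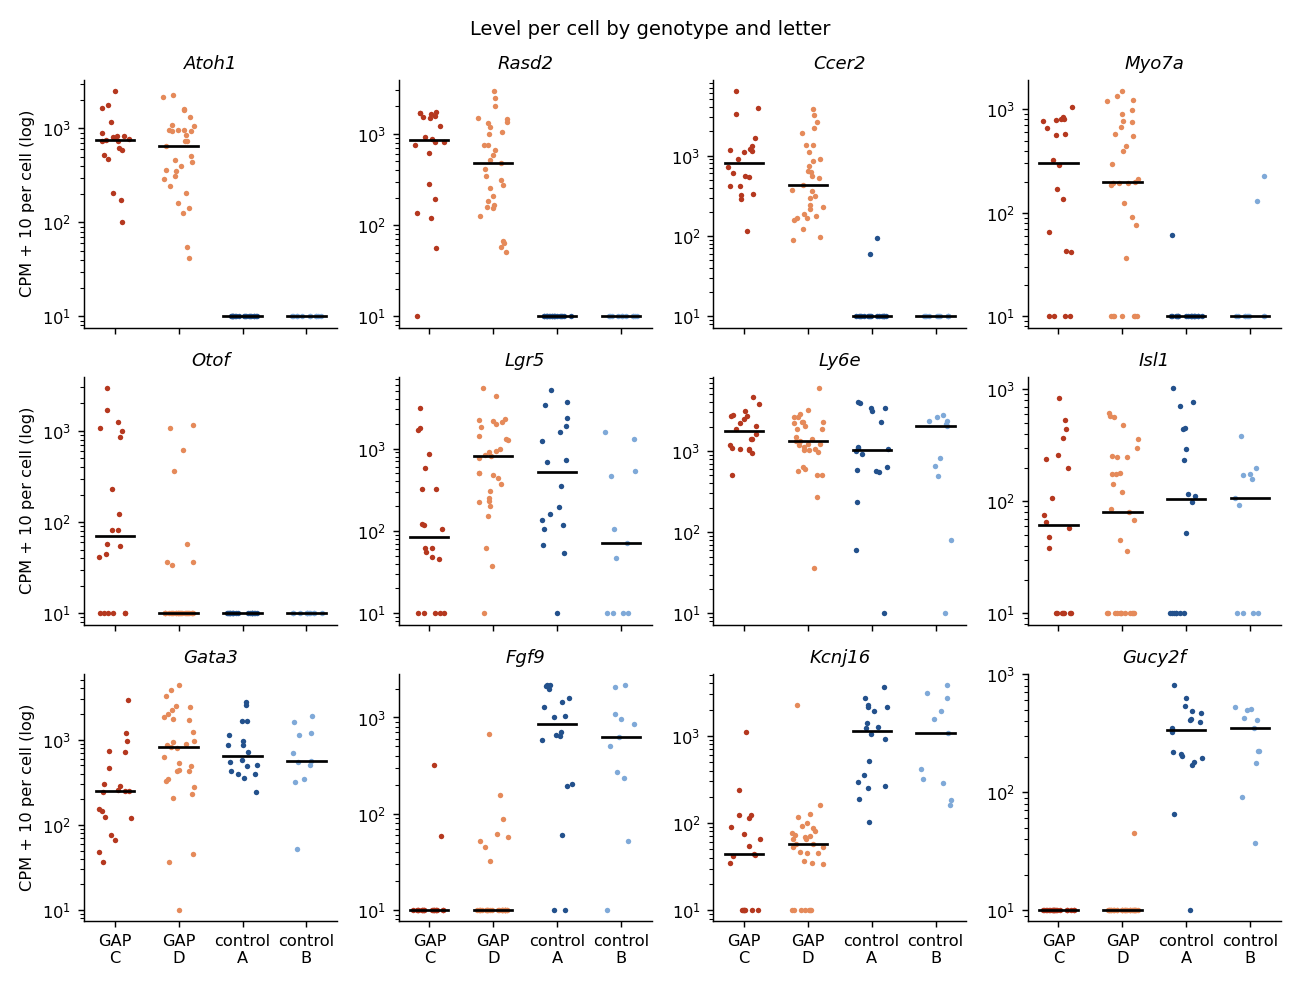
Level of 12 genes in each cell as CPM + 10 on a log axis, by genotype and letter, with the median as a bar. Atoh1, Rasd2, Ccer2, Myo7a and Otof are higher in GAP cells, Otof in part of them, Fgf9, Kcnj16 and Gucy2f are lower, and the cells of both genotypes overlap for Lgr5, Ly6e, Isl1 and Gata3.

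Of 16 gap junction and potassium genes, 12 were measured, 0 were at least 2-fold higher, 4 at least 2-fold lower (12.5% over all measured genes) and 8 between, and the median log2 ratio was -0.88. In 1 control cell the listed genes summed to 38029 CPM, against a median of 6603 CPM over the control cells. Kcnj16, a potassium channel subunit, was at 90.9 and 88.3 CPM in letters C and D, against 1363 and 1405 CPM in letters A and B, 15.5-fold lower (12.9 to 18.7). Its partner Kcnj10 was at 176.5 and 152.5 CPM in letters C and D, against 808 and 628 CPM in letters A and B. The connexins were closer, with Gjb2 at 748 CPM in GAP cells and 974 CPM in control cells and Gjb6 at 258 and 473 CPM in those sets. Both connexins were within 2-fold and both inward rectifier channels were not.

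Among 24 general supporting cell genes, 21 were measured, 6 were at least 2-fold higher and 6 at least 2-fold lower, and the median log2 ratio was -0.19. Over all measured genes 21.6% were at least 2-fold higher and 12.5% lower. S100a1, a calcium-binding protein abundant in supporting cells, was at 6467 and 8662 CPM in letters C and D, against 3819 and 3885 CPM in letters A and B. Sox10 was at 679 CPM in GAP cells and 1126 CPM in control cells and Sox9 at 474 and 691 CPM, and both had a UMI in at least 46 of the 51 GAP cells. Of 21 inner sulcus and tectorial membrane genes, 17 were measured, 3 were at least 2-fold higher and 6 at least 2-fold lower, and the median was -0.70. Epyc, epiphycan, was at 1213 and 2988 CPM in letters C and D, against 3978 and 5296 CPM in letters A and B. Ceacam16, a tectorial membrane protein, was at 5.24 and 3.44 CPM in letters C and D, against 132.5 and 109.4 CPM in letters A and B. Of 19 outer sulcus and Hensen cell genes, 13 were measured, 3 were at least 2-fold higher and 4 at least 2-fold lower, and the median was -0.47, and Slc26a4, the pendrin exchanger, was at 201 and 519 CPM in letters C and D, against 1462 and 1147 CPM in letters A and B.

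Of 9 measured pillar and Deiters genes among 17 listed, 2 were at least 2-fold higher and 4 at least 2-fold lower, and the median was -0.76. The 7 measured lateral wall genes of 17 had a median of -2.26, with 0 at least 2-fold higher and 5 lower. A single control cell held 28067 CPM of the lateral wall list against a median of 1216 CPM over the control cells, and without letter B the median was -1.49. Of 25 matrix genes, 17 were measured, 3 were at least 2-fold higher and 8 at least 2-fold lower, and the median was -0.78. Of 24 epithelial adhesion genes, all measured, 7 were at least 2-fold higher and 4 lower, and the median was 0.05. Over all measured genes 21.6% were at least 2-fold higher and 12.5% lower. The epithelial and pillar counts of higher genes lay near that share.

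Of 17 measured Notch genes among 23 listed, 8 were at least 2-fold higher and 2 at least 2-fold lower, and the median was 0.80, beside 21.6%, 12.5% and 0.14 over all measured genes. Jag2, a Notch ligand that hair cells present, was at 304 and 114.6 CPM in letters C and D, against 28.7 and 14.03 CPM in letters A and B. Heyl, a bHLH repressor downstream of Notch, was at 460 and 522 CPM in letters C and D, against 22.1 and 47.7 CPM in letters A and B, while 50 GAP cells had a UMI. Notch1, the receptor, was a shared gene, at 462 CPM in GAP cells and 413 CPM in control cells. Jag2 and Heyl were thus higher in both GAP letters than in both control letters, and Notch1 overlapped between them. Of 15 measured Wnt genes among 20 listed, 4 were at least 2-fold higher and 2 lower, and the median was 0.02. Sfrp1, a secreted Wnt antagonist, was at 246 and 823 CPM in letters C and D, against 1546 and 2637 CPM in letters A and B. Lgr6, a receptor for R-spondins, was at 85.6 and 85.98 CPM in C and D, against 2.21 and 0 in A and B.

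The shared genes with the highest levels included the nuclear RNA Malat1, Hsp90ab1, the splicing scaffold Srrm2, the actin gene Actb, Lars2, the actin regulator Enah, Ly6e, the ubiquitin ligases Nedd4 and Huwe1, and the amyloid precursor relative Aplp2. Aplp2 was at 1015 and 1180 CPM in letters C and D, against 967 and 1302 CPM in letters A and B, while its ratio was 0.9999 (0.921 to 1.09). Rn18s-rs5, a ribosomal RNA repeat that the rule also named, was at 4055 CPM in GAP cells and 4101 CPM in control cells, and reads of such repeats cannot be placed with certainty. Ly6e, a membrane-anchored protein gene, was at 1886 and 1544 CPM in letters C and D, against 1690 and 1461 CPM in letters A and B, a ratio of 1.06 (0.987 to 1.13), at 1055 CPM in the GAP cells of cluster 1 and at 132.95 to 296 CPM in control clusters 0, 4 and 6. The 19 measured genes of oxidative phosphorylation among 20 listed had 0 members past 2-fold in either direction and a median of -0.12.

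Genes that set WT Cells 2 apart from the other control cells were then followed into the GAP cells. They were chosen on letter A alone, as at least 4-fold higher or lower in the 18 cells of cluster 3 than in the 60 cells of clusters 0, 4 and 6, with at least 50 CPM and a UMI in at least 50% of the cells of the higher set. This gave 74 higher and 95 lower genes. In letter B, which took no part in the choice of genes but is part of the authors' clustering, 72 of 74 and 85 of 95 differed in the same direction. Within the GAP genotype, cluster 2 was compared with cluster 1 in the same letters. Of the 74 genes, 25 were at least 2-fold higher in cluster 2 than in cluster 1 in both letters, and of the 95 genes, 41 were at least 2-fold lower in both. Over all 10263 genes measured there, 5.80% were at least 2-fold higher in both letters and 4.97% at least 2-fold lower in both. Singly, 26 of the 74 genes passed 2-fold in C and 47 in D, against 13.99% and 15.1% of all genes, and 52 and 55 of the 95 genes were at least 2-fold lower, against 13.9% and 12.1%. With letter B choosing the genes, an alternative chosen after seeing the data, 20.5% of them, 27 genes, were higher in both, in place of 33.8%. Against WT Cells 2 itself, 43 of the 74 genes were at least 2-fold lower in the cluster 2 GAP cells, 30 were within 2-fold and 1 was at least 2-fold higher, with a median log2 ratio of -1.30. Over all measured genes 12.5% were at least 2-fold lower. The 74 genes were chosen as high in letter A cells that are part of this WT Cells 2 set, so the lower levels follow in part from the choice. The median log2 ratio of the 74 genes was 0.67 in C and 1.61 in D, and that of the 95 genes -1.35 in C and -1.27 in D, against 0.02 and 0.05 over all genes. This comparison was added after some of its values had been seen, and it has no test.

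Among the genes high in WT Cells 2, Apoa4, an apolipoprotein, was at 206 CPM in cluster 2 and 3.17 CPM in cluster 1 of letter C, at 106.6 and 7.26 CPM in letter D, and at 228 CPM in WT Cells 2 against 9.10 CPM in the other control cells of letter A. Tbx3, a T-box factor, was at 183 and 18.99 CPM in letter C, at 84.8 and 1.21 CPM in letter D, and at 75.1 against 11.6 CPM in letter A. Fst, the activin antagonist follistatin, was at 52.4 and 2.11 CPM in letter C, at 242 and 16.9 CPM in letter D, and at 356 against 9.92 CPM in letter A. The 3 genes were at 1.21 to 18.99 CPM in cluster 1 and at higher levels in cluster 2 of both letters. They are among the 25 of 74 genes at least 2-fold higher in both letters, so this order follows from their choice as examples. Emx2, a homeobox factor, followed the same order in letters C and D and in letter A, but in letter B it was at 11.2 CPM in WT Cells 2 and 6.31 CPM in the other control cells. Lgr5, a stem cell receptor that marks Deiters and other supporting cells, was at 496 and 960 CPM in C and D of cluster 2, at 301 and 336 CPM in C and D of cluster 1, and at 1416 and 373 CPM in A and B of WT Cells 2.

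Genes low in WT Cells 2 were read the same way. Otoa, the otoancorin that anchors the tectorial membrane, was at 89.1 CPM in cluster 2 and 895 CPM in cluster 1 of letter C, at 56.2 and 1104 CPM in letter D, and at 72.9 CPM in WT Cells 2 against 906 CPM in the other control cells of letter A. Nr2f1, a nuclear receptor, was at 153.8 and 1311 CPM in letter C, at 123.8 and 1562 CPM in letter D, and at 83.9 against 932 CPM in letter A. Ebf1, a helix-loop-helix factor, was at 50.7 and 409 CPM in letter C, at 28.7 and 457 CPM in letter D, and at 48.6 against 608 CPM in letter A. Each of the 3 was low in cluster 2 and in WT Cells 2 and high in cluster 1 and in the other control cells. They are among the 41 of 95 genes at least 2-fold lower in both letters, so this pattern follows from their choice as examples. Other genes of the WT Cells 2 profile were lost. Fgf9, Ucma, Nupr1 and Iqgap2 were at 2.77 to 80.99 CPM in cluster 2, at 9.02 to 59.7 CPM in cluster 1 and at 475 to 1031 CPM in WT Cells 2. Car12 was lost against WT Cells 2 and was also 1 of the 25 genes higher in cluster 2 than in cluster 1, at 73.4 and 12.7 CPM in letter C and at 135.3 and 10.9 CPM in letter D.

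**Figure D5:**
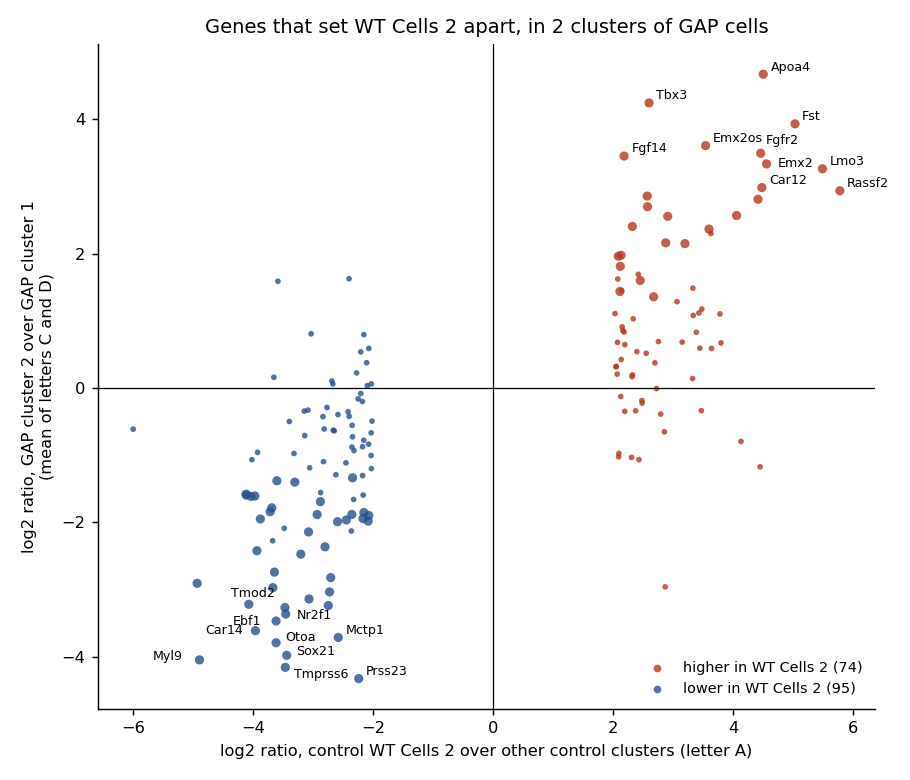
The 74 higher and 95 lower genes chosen in letter A, placed by their log2 ratio in control cells of letter A (WT Cells 2 over the other control clusters, horizontal axis) and in GAP cells (cluster 2 over cluster 1, mean of letters C and D, vertical axis). Large points are at least 2-fold in both GAP letters, 25 of the 74 higher and 41 of the 95 lower genes.

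The gained genes were also compared between the 2 GAP clusters. Of the 238, 130 differed by less than 2-fold between them, 81 were at least 2-fold higher in cluster 2 and 27 at least 2-fold lower, and since they were chosen as high in cluster 2 this split is a description. Ccer2 was at 1048 CPM in cluster 2 and 4659 CPM in cluster 1, and Kcnh6, a potassium channel gene, at 51.9 and 418 CPM. Myo7a was at 452 and 128.5 CPM, Tmc1 at 89.3 and 21.4 CPM and Slc17a8 at 29.8 and 0.563 CPM in the same order. Summed in that order, the synapse list was at 2829 and 5934 CPM, Usher at 1326 and 1521 CPM and bundle actin at 2818 and 3049 CPM. Ccer2 alone made up 1048 and 4659 CPM of the synapse sums, and the rest of that list summed to more in cluster 2. The fate list was at 3902 and 3468 CPM, myosins at 3157 and 2584 CPM and transduction at 1351 and 883 CPM. Calcium genes were at 7384 and 4256 CPM and channels at 444 and 413 CPM. Among the 90 lost genes, 42 were at least 2-fold lower in cluster 2 than in cluster 1, 16 at least 2-fold higher and 32 between. They were chosen as low in cluster 2, so this split is a description too. Over all genes measured in these clusters, taken by letter, 13.99% in C and 15.1% in D were at least 2-fold higher in cluster 2. In the same letters 13.9% and 12.1% were at least 2-fold lower.

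Markers of other cell types were read in both sets, and their part in these results was not tested. The 5 glial markers summed to 48.5 CPM in GAP cells and 100.1 CPM in control cells, with Mag at 0 in both. The 6 fibroblast markers summed to 238 and 907 CPM, mostly Lum, which was at 183 CPM in GAP cells and 881 CPM in control cells and had a UMI in 28 of 29 control cells, while Col3a1 was at 0 in both. The 4 neuronal markers summed to 29.8 and 1.24 CPM with Nefl at 0, the 5 leukocyte markers to 24.2 and 0 CPM, and the 4 endothelial markers to 51.2 and 16.1 CPM with Cdh5 and Cldn5 at 0. In the GAP cells single cells held up to 1210 CPM of the neuronal and 1401 CPM of the endothelial markers, with a median cell at 0. The 7 measured mitochondrial genes, a guide to RNA quality, summed to 14535 CPM in GAP cells and 18809 CPM in control cells. Of 16 immediate early and heat shock genes, 15 were measured, 2 were at least 2-fold higher and 2 at least 2-fold lower, and the median was 0.43.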

How the data were processed

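The values deposited by the authors are raw exon UMI counts, 1 row a gene and 1 column a cell. The submitters' processing notes name STAR, HTSeq and the mm10 build. Their versions, how UMIs were collapsed and whether strand was used: not given in the sources used here. Clusters and their names are those of the deposited annotation, no doublet caller was run, and no columns were identical. UMIs were summed per set of cells and scaled to CPM. Log2 ratios add 1 CPM. Ratio intervals are exact conditional-binomial, and a count of 0 was given a limit of 3 counts over the set. The letters in the titles were read as plates. Genes per cell were counted after thinning cells to 8000 UMIs, which left out 0 cells. The ratio computation was tested on simulated data.

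The members and the 35 lists (491 of 493 listed genes are in the matrix) were chosen with earlier results of these data known. Named genes are Atoh1, Gfi1, Pou4f3, Fbxo2 and Epcam, the 12 gained and 12 lost genes with the largest log2 ratio (no cell above the sum of the others divided by 2, predicted genes left out), the 12 shared genes with the highest lower level, and the 4 members of a list with most UMIs, or 8 for hair cell lists. Not every gene that the rule names is described. Nhlh1, Lhx3, Barhl1, Tmc2, Slc17a8, Kcnh6, Ikzf2, Bcl11b, Sox9, Gjb6, Kcnj16, Fxyd6, Iqgap2, Psat1, Psph, Phgdh and Mdk were named after their values were seen. Cell type markers not covered by the rule were named to check the labels. Apoa4, Tbx3, Fst, Emx2, Otoa, Nr2f1 and Ebf1 are examples from the genes that passed 2-fold in both GAP letters.

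Other settings tried were averaging CPM over cells, TMM (edgeR 4.0.16, R 4.3.3) and median of ratios scaling, cells with at least 15000 UMIs, thinning, 10 CPM as pseudocount, 50 CPM or nothing as the minimum level, the cell with most UMIs of a gene left out, each letter left out, other control clusters, and both genotypes of cluster 3. Python 3.11.15, numpy 2.4.6, pandas 2.3.3, scipy 1.17.1 and matplotlib 3.10.9 were used.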

Additional observations from a re-analysis of the deposited data

Results flagged for a closer look

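The annotation also places 5 GAP cells in cluster 3, 1 of letter C and 4 of letter D, which the comparison of genotypes left out. They held transcripts of the 3 genes that the GAP allele carries, for which the WT Cells 2 control cells had 0 UMIs. Whether these came from the allele or from the endogenous genes cannot be told from counts. Pooled over the 5 cells, Atoh1 was at 137.99 CPM (81.8 to 218, 18 UMIs in 4 cells), Pou4f3 at 53.7 CPM (21.6 to 110.6, 7 UMIs in 3 cells) and Gfi1 at 30.7 CPM (8.36 to 78.5, 4 UMIs in 3 cells). In the cluster 2 GAP cells the same genes were at 815, 602 and 190.4 CPM. A cell of letter D stood far from the other 4 for Atoh1, at 1034 CPM. It was the shallowest of the 5, with 9671 UMIs of which 10 were Atoh1, and it held 207 CPM of Myo6 and 103.4 CPM of Ccer2. The cell of letter C, the deepest with 40387 UMIs, stood far from the other 4 for Myo6, at 718 CPM, and for Ccer2, at 594 CPM. The gap was looked for in 9 groups of values with Dixon's limit. Chance passes it in about 1 in 20 groups of independent, normally distributed values. Many values here rest on a few UMIs in cells of unlike depth, so that rate need not hold, and single cells are not replicates. The cause was not tested.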

How the results depend on the processing

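No paired analysis was possible because the numbers in the titles, read here as well numbers of single cells, name no pairs. No fit was made with 1 sample per genotype. Main counts were 238 gained, 90 lost and 1086 shared genes, with 2212 at least 2-fold higher and 1285 lower. As a percent of the main count, a pseudocount of 10 CPM gave 36.97% of the gained and 38.9% of the lost genes, and 839 genes at least 2-fold lower. Thinning to 8000 UMIs gave 60.9% of the gained genes and 473 shared genes. A filter of 50 CPM gave 791 higher and 627 lower genes, and no filter 4687 and 2446. With each letter left out, gained genes came to 89.9% to 181.5% and lost genes to 106.7% to 163.3% of the main counts, shared genes to 1025 to 1131, higher genes to 2181 to 2791 and lower genes to 1386 to 1764. Chosen after seeing the data, the GAP cells of cluster 3 in place of control cells gave 354% of the gained genes and 3611 higher genes. With 1 cell of letter C and 4 of letter D, the rule there asked for no pairing of letters. The 5 cells held 130442 UMIs against 809230 in the control cells, so these counts are not like the main ones. With letter B choosing the WT Cells 2 genes, also added later, 20.5% in place of 33.8% were higher in cluster 2. Of the 2-fold differences 63.3% were higher in GAP cells, and 55.8% with a filter of 50 CPM. Of the 238 gained genes, 235 were gained under TMM and 232 under median of ratios, and with a letter left out 182 to 214. Of the 1086 shared genes, 706 to 853 were shared with a letter left out and 363 after thinning. With all control cells of clusters 0, 3, 4 and 6, the log2 ratio was 0.0019 for Atp2b2, -0.30 for Cldn9, -1.09 for Gsn and -0.44 for Ush1c, each of the other sign than in the main comparison. Without letter D it was -0.013 for Cdkn1a and -2.28 for Pecam1, and over the letters left out the highest were 1.97 and 5.61. The cause was not tested for any of these.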

Other observations

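A few gained genes outside the lists were chosen for mention after their values were seen, with no count of their pathway. Psat1, an aminotransferase of serine synthesis, was at 1370 and 957 CPM in C and D and at 97.2 and 36.5 CPM in A and B, 15.9-fold higher (12.2 to 21.1), with a UMI in all 51 GAP cells and 15 of 29 control cells. Psph, a phosphatase of serine synthesis, was at 271 and 188 CPM in C and D and at 15.5 and 30.9 CPM in A and B. Phgdh, a dehydrogenase of serine synthesis, was at 61.2 and 9.17 CPM in C and D and at 2.21 and 0 in A and B. All of these were higher in each GAP letter than in each control letter, which the rule for gained genes requires. Mdk, the secreted growth factor midkine, was at 1162 and 1123 CPM in C and D and at 11.04 and 36.5 CPM in A and B, 51.2-fold higher (32.3 to 86.6).

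Of 26 neuronal genes 8 were measured, 4 at least 2-fold higher and 1 lower, and the median log2 ratio was 1.40. Of 19 cell cycle genes 6 were measured, 4 at least 2-fold higher and 0 lower, and the median was 1.87. The 6 were Pcna, Mcm3, Mcm5, Ccnd1 and the cell cycle inhibitors Cdkn1b and Cdkn1a. Mki67, Top2a and Cdk1, which mark dividing cells, did not reach 10 CPM in either set. Of 15 genes of the p53 response 9 were measured, 3 at least 2-fold higher and 0 lower, and the median was 0.78. Beside these 3 lists, 21.6% of all measured genes were at least 2-fold higher and 12.5% lower.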
